A study of Rattus norvegicus with 6 samples.

Results

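The 38 genes described here code for the proteins that copy DNA and mend it during copying, together with the enzymes that supply its building blocks. They were chosen by gene symbol from a fixed list, which was made with earlier results of these data known. Every one was found among the 17954 genes of the files. The list covers the sliding clamp and its loader, the replicative polymerases, Okazaki fragment processing, the single-strand binding protein RPA, the GINS complex, deoxynucleotide supply, recombination, crosslink and mismatch repair, and the E2F factors with the checkpoint kinase Chek1. Levels were measured by mRNA sequencing in 6 rat libraries, 3 of condylar cartilage organoids and 3 of mandibular condylar chondrocytes grown in 2D culture, these being cartilage cells of the jaw joint. The organoids were kept in a chondrogenic medium whose makeup the labels do not state. The 2D cultures were kept in DMEM, a standard culture medium, with 20% fetal bovine serum and antibiotics. Culture format and medium therefore differed together and cannot be told apart, and whether the organoid medium held serum is not stated. The labels state neither rat strain and age nor the number of animals and cultures, and the spread that p-values rest on is that between libraries, which may be technical.

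DNA is copied at forks where a helicase of MCM proteins, Cdc45 and GINS unwinds the strands and RPA coats the bare strand. Polymerase alpha-primase lays primers, the RFC complex loads the PCNA clamp, and polymerases epsilon and delta extend the leading and lagging strands. Fen1 and Lig1 then trim and join the lagging-strand pieces. Many of these genes are transcribed ahead of S phase by E2F factors, which the retinoblastoma protein and its relatives restrain. In growth cartilage, dividing chondrocytes run this programme and hypertrophic chondrocytes have left the cell cycle.

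Library totals were 18592574 to 25656808 estimated counts in organoids and 25856486 to 26472447 in 2D culture. Levels are counts scaled to library size (CPM) with TMM factors, each log2 fold change compares organoids with 2D culture and carries its SE, and a gene is called where edgeR's quasi-likelihood test gave an adjusted p under 0.05 over all 13052 genes tested. Of these, 1944 were higher and 1650 lower in organoids (1063 and 3529 when total library size was used instead of TMM). The 10 most counted genes of each library took 36.8% to 43.2% of counts in organoids and 11.5% to 12.5% in 2D culture. Among chondrocyte markers, 8 of the 9 tested were higher in organoids, where the list of 10 summed to 11570 to 99620 CPM, against 1499 to 1601 CPM in 2D culture. The cartilage collagen gene Col2a1 averaged 35560 ± 37838 CPM in organoids and 4.01 ± 1.01 CPM in 2D culture (SD, n = 3 each), so the 2D cells carried little of this transcript. Acan, the tested marker that did not pass, averaged 4346 ± 3469 CPM in organoids and 1460 ± 50.2 CPM in 2D culture (edgeR adjusted p = 0.0824). It made up most of the 2D sum. All 6 osteoblast markers were higher in organoids, at a summed 10860 to 16850 CPM against 65.3 to 69.0 CPM in 2D culture. Among smooth muscle and pericyte markers 3 of 5 tested were lower and 1 higher. The list summed to 401 to 1285 CPM in organoids and 485 to 511 CPM in 2D culture. Acta2, Cnn1 and Myh11 were lower, averaging 1.10, 0.0589 and 1.86 CPM in organoids and 128, 115 and 61.4 CPM in 2D culture. Cspg4 was higher, averaging 749 CPM in organoids and 194 CPM in 2D culture, and made up most of the organoid sum. Endothelial markers summed to at most 3.59 CPM in organoids and 0.805 CPM in 2D culture, with Kdr at 0 in organoids. Macrophage and leukocyte markers summed to 39.6 to 66.4 CPM in organoids and 7.25 to 10.3 CPM in 2D culture, with Adgre1 at 0 in both, and Cd79a was called higher among 3 tested. Ptprc and Itgam averaged 0.067 and 0.0393 CPM in organoids and 0 and 0.102 CPM in 2D culture. Cd79a, Cd14 and Csf1r made up most of the organoid sum, averaging 17.4, 17.0 and 16.4 CPM, with Csf1r at 0.142 CPM in organoid 3. Of 2 tested osteoclast markers Acp5 was higher, the list summing to 102.7 to 264 CPM in organoids and 138.5 to 141 CPM in 2D culture with Tnfrsf11a at 0 in organoids. Adipocyte markers summed to 5.82 to 13.4 CPM in organoids and 0.337 to 0.526 CPM in 2D culture, where the one tested, Fabp4, was higher and Lep was at 0 in organoids. Neural markers summed to 1.26 to 5.54 CPM in organoids and 16.4 to 19.2 CPM in 2D culture and epithelial ones to 0.421 to 5.06 CPM in organoids and 0.96 to 1.47 CPM in 2D culture, with 0 called in either list by edgeR. The part of these shifts in the values below was not tested, and in bulk RNA fewer cycling cells and less of a transcript per cell cannot be told apart.

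Every role group except the E2F factors and checkpoint kinase held at least 1 gene called lower in organoids. The number was 1 of 4 for GINS and 2 of 5 for polymerases delta and epsilon. In organoids 22 of the 38 members fell, 0 rose and 16 did not pass (edgeR). At an unadjusted p under 0.05 there were 24 members, the 22 with Brca1 and Gins3, each with a negative fold change, beside 5304 of all 13052 genes in either direction. For adjusted calls the background was 12.6% of all genes called lower and 14.9% called higher, and the members' share called lower was 57.9%. The same background holds for the edgeR counts of each group and list below. The median log2 fold change of the members was -1.73, with a range of -6.26 to 0.52, beside -0.03 for all genes tested. In either direction 27.5% of all genes were called. All 3 organoids lay below all 3 2D cultures for 32 members, or 84.2%, against 30.2% of all genes tested, and 0 members lay above, against 23.4%. Since the members were chosen with earlier results of these data known, these contrasts describe the list and are not independent evidence. Summed over the 38 members, organoid 1, 2 and 3 held 607, 581 and 759 CPM, and 2D culture 1, 2 and 3 held 2180, 2065 and 2191 CPM. As a share of all counts, without scaling, the members made up 0.0402% to 0.0666% in organoids and 0.261% to 0.27% in 2D culture.

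**Figure D1:**
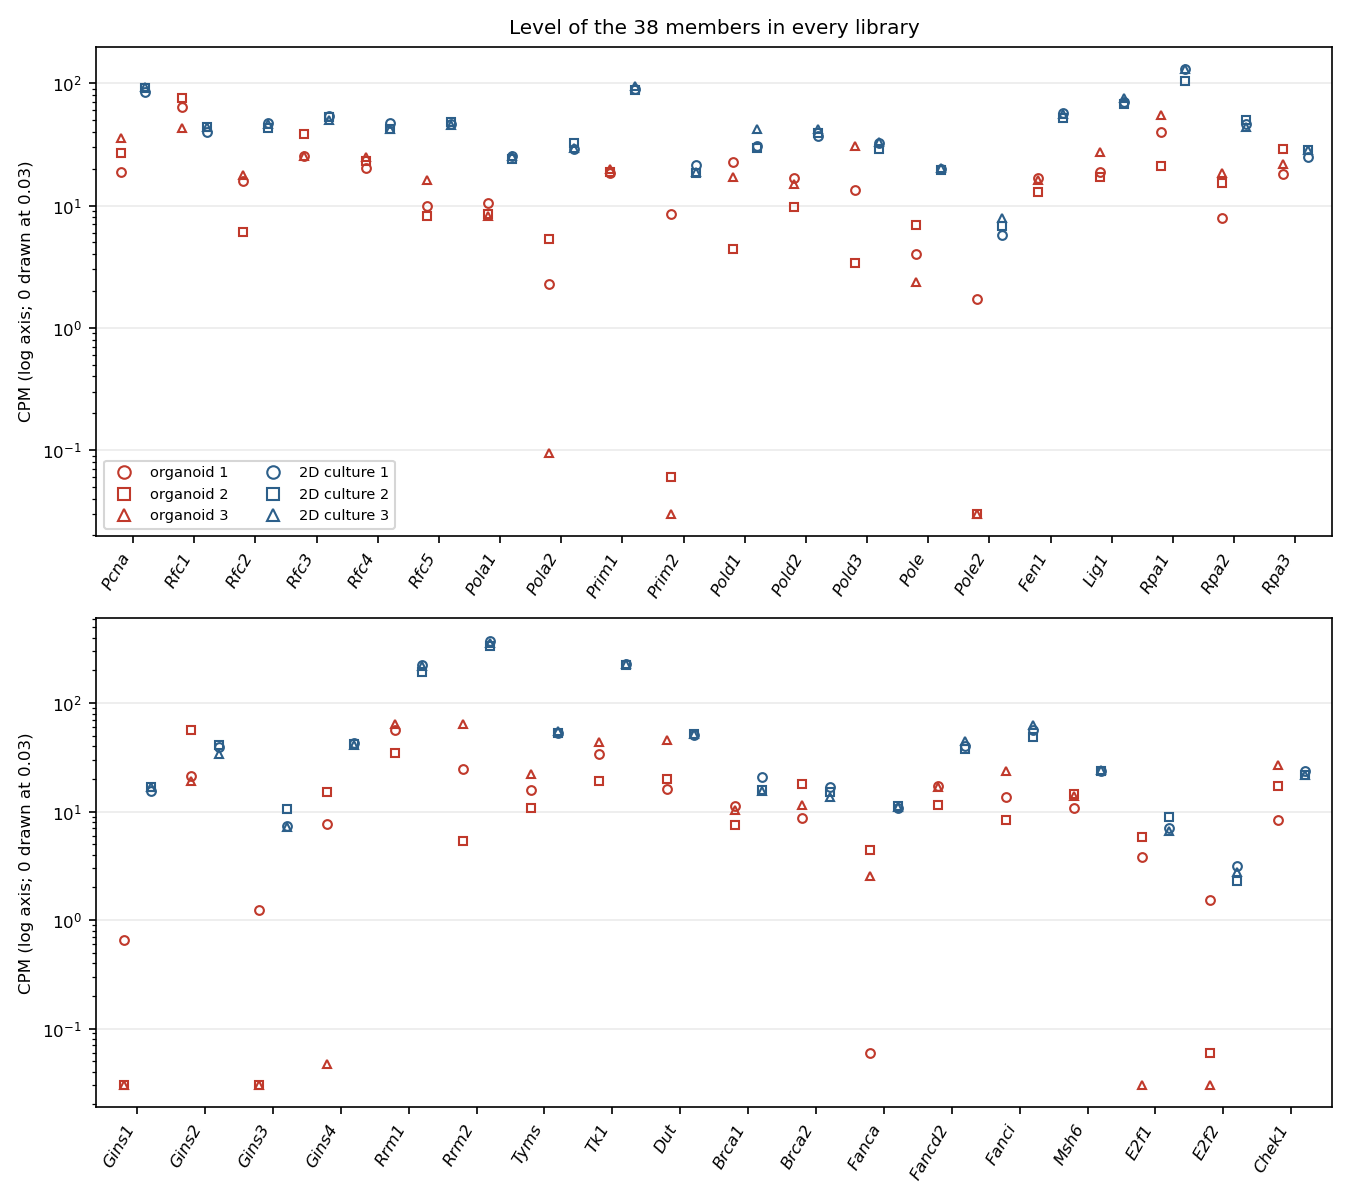
Level of each of the 38 members in every library, in CPM on a log axis, with organoids as red symbols to the left and 2D cultures as blue symbols to the right of each gene, and values of 0 drawn at 0.03. For most genes the red symbols sit below the blue ones, and for Gins1, Gins3, Pole2, Prim2 and E2f2 only organoid 1 held more than 1 count.

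Fewer calls were made without any one of the 2D cultures. The median SD of log2 CPM over the members was 0.672 in organoids and 0.09 in 2D culture. Over all genes tested it was 0.683 in organoids and 0.137 in 2D culture, so the larger organoid spread was not particular to the members. Without 2D culture 1, 2 or 3 the members called lower numbered 7, 9 and 7, against a background of 2.98%, 3.27% and 3.03% of genes. Under each of these, 13 called members lost their call. They were Rfc2, Rfc3, Rfc4, Pola1, Pola2, Pold2, Pole, Rpa1, Rpa2, Gins1, Rrm2, Fanci and Msh6. Tyms and Fancd2 lost theirs without 2D culture 1 and without 2D culture 3. Without organoid 1, 2 or 3 the number was 22, 23 and 23, against 17.1%, 19.2% and 17.3% of genes. With all libraries, 21 members were called lower with DESeq2 size factors (background 12.3%), 26 with total library size (27%), 21 without the filter on low counts (9.23%), 23 with DESeq2 (17.4%), 28 with limma-voom (19.4%) and 23 with limma-voom weighted per group (14%). Pcna, Rfc5, Prim1, Fen1, Lig1, Rrm1 and Tk1, a set of 7, were called lower under all 13 alternatives tried. Pold3, Rpa3, Brca2, E2f1 and Chek1 were called in 0 of them. The set of 7 came only from the clamp and clamp loader, polymerase alpha-primase, Okazaki fragment maturation and nucleotide supply groups.

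In the clamp and clamp loader group 5 of 6 members fell. The sliding clamp gene Pcna (gene ID 25737) stood at 18.9, 27.0 and 35.6 CPM in organoid 1, 2 and 3, against 84.4, 92.1 and 92.7 CPM in 2D culture 1, 2 and 3. The highest organoid was well under the lowest 2D culture, with a log2 fold change of -1.72 ± 0.27 (edgeR adjusted p = 0.00631). Rfc5, a small subunit of the loader, had 9.90, 8.17 and 16.2 CPM in organoids and 46.2, 48.4 and 45.9 CPM in 2D culture (-2.03 ± 0.31, adjusted p = 0.00564, edgeR). Rfc2, another small subunit, had 16.0, 6.07 and 17.9 CPM in organoids and 47.1, 43.3 and 46.5 CPM in 2D culture (-1.77 ± 0.41). Organoid 2 was the lowest for both small subunits, and neither gene's groups overlapped. The remaining small subunits fell by less, Rfc3 by 0.82 and Rfc4 by 0.94 on the log2 scale. Rfc3 passed narrowly (edgeR adjusted p = 0.0456) and was called under 6 of 13 alternatives (adjusted p up to 0.163), losing its call without organoid 1, without organoid 3 and without each 2D culture. Rfc1, the large subunit of the loader, did not follow them. It had 64.1, 76.2 and 43.1 CPM in organoids and 39.7, 44.1 and 43.7 CPM in 2D culture, so that organoid 3 lay within the 2D range. Its change of 0.52 ± 0.26 did not pass (edgeR adjusted p = 0.175). It was called higher without organoid 3 (adjusted p = 0.0324) and had a negative sign with total library size.

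Of the 4 genes of polymerase alpha-primase, 3 fell. Prim1 (gene ID 246327), the catalytic primase, held nearly the same level in every organoid, with 18.5, 18.9 and 19.9 CPM, against 89.1, 88.2 and 95.2 CPM in 2D culture. Its fall of 2.25 ± 0.19 on the log2 scale had the smallest adjusted p among the members (0.000736, edgeR). Pola1, the catalytic polymerase subunit, had 10.5, 8.47 and 8.19 CPM in organoids and 25.3, 24.2 and 25.3 CPM in 2D culture (-1.46 ± 0.27). Both catalytic subunits varied little among the organoids. The accessory subunits varied far more. Pola2 was at 2.30, 5.29 and 0.0946 CPM in organoids, where organoid 3 had 2 counts, against 29.0, 32.8 and 29.8 CPM in 2D culture (-3.58 ± 1.05, edgeR adjusted p = 0.0455). It lost its call without organoid 1 (edgeR adjusted p = 0.11) and without each 2D culture. Prim2, the large primase subunit, was at 8.48, 0.0601 and 0 CPM in organoids and 21.5, 18.6 and 18.9 CPM in 2D culture. Its groups did not overlap and it did not pass (-2.79 ± 1.70, edgeR adjusted p = 0.263). Prim2 was called lower without organoid 1, which leaves organoids with 1 and 0 counts (fitted change -9.27, edgeR adjusted p = 0.00347), and with limma-voom both with and without weights per group (-6.30 and -6.32).

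Of the 5 genes of polymerases delta and epsilon, 2 fell. Pole, the catalytic subunit of the leading-strand polymerase, was at 4.01, 6.97 and 2.37 CPM in organoids and 20.0, 19.7 and 20.3 CPM in 2D culture (-2.17 ± 0.46, edgeR adjusted p = 0.0165). Pole2, its second subunit, was at 1.71, 0 and 0 CPM in organoids and 5.73, 6.79 and 7.86 CPM in 2D culture (-3.58 ± 1.70, not passed). Pole2 was called lower without organoid 1 (edgeR adjusted p = 0.00649), where both remaining organoids have 0 counts and a fitted change is no bound, and with limma-voom with and without weights. Pold2, an accessory subunit of polymerase delta, averaged 13.9 ± 3.72 CPM in organoids and 39.6 ± 2.53 CPM in 2D culture and fell by 1.51 on the log2 scale. The catalytic subunit Pold1 did not pass, at 14.8 ± 9.42 CPM in organoids and 34.3 ± 7.27 CPM in 2D culture (-1.21 ± 0.56, edgeR adjusted p = 0.156). Pold3 had 13.4, 3.36 and 30.7 CPM in organoids and 32.4, 29.3 and 33.4 CPM in 2D culture, so organoid 3 reached the 2D range and organoid 2 lay lowest (-1.0 ± 0.69).

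Both enzymes of Okazaki fragment maturation fell, by similar amounts. The flap nuclease gene Fen1 (gene ID 84490) had 16.9, 12.9 and 16.1 CPM in organoids and 56.9, 51.8 and 56.6 CPM in 2D culture (-1.85 ± 0.22, edgeR adjusted p = 0.00226). The ligase gene Lig1 had 18.7, 17.2 and 27.7 CPM in organoids and 70.0, 67.3 and 75.5 CPM in 2D culture (-1.74 ± 0.25, adjusted p = 0.00463, edgeR). Each organoid lay below each 2D culture for both genes, as for 30.2% of all genes tested.

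Within RPA, the trimer that coats single-stranded DNA, 2 of 3 genes fell. Rpa1, the large DNA-binding subunit, had 40.1, 21.0 and 54.7 CPM in organoids and 130.0, 104.7 and 130.5 CPM in 2D culture (-1.66 ± 0.36). It lost its call without organoid 1 (edgeR adjusted p = 0.0502) and without each 2D culture. Rpa2, the subunit phosphorylated under replication stress, had 7.84, 15.3 and 18.4 CPM in organoids and 46.6, 49.9 and 43.9 CPM in 2D culture (-1.76 ± 0.35). Rpa2 had fractional counts in all 6 libraries, a sign of reads shared with other genes, so its level is uncertain. Rpa3, the smallest subunit, overlapped between groups at 18.0, 29.0 and 21.7 CPM in organoids and 24.9, 28.7 and 28.2 CPM in 2D culture (-0.25 ± 0.26, adjusted p = 0.514, edgeR).

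Of the 4 genes of GINS, the helicase partner, 1 fell, and their fold changes showed the widest range of any group. Gins1 (gene ID 499914) had the most negative fold change among the members. It was at 0.648, 0 and 0 CPM in organoids, from 11 counts in organoid 1, against 15.4, 17.0 and 16.9 CPM in 2D culture (-6.26 ± 1.38, edgeR adjusted p = 0.0184). The fitted change was -11.79 without organoid 1, where both remaining organoids have 0 counts, and that value is no bound. A count of 0 allows up to 0.18 CPM in organoid 2 and 0.142 CPM in organoid 3. Gins3 was at 1.24, 0 and 0 CPM in organoids and 7.33, 10.5 and 7.18 CPM in 2D culture (-4.34 ± 1.64, adjusted p = 0.0933, edgeR), and it was called lower under 5 of 13 alternatives, among them the fit without organoid 1 (adjusted p = 0.00594). Gins4 averaged 7.66 ± 7.61 CPM in organoids, with 1 count in organoid 3, and 42.0 ± 0.542 CPM in 2D culture (-2.46 ± 1.21, not passed). Gins4 was called lower without organoid 3 (edgeR adjusted p = 0.0143) and with limma-voom with and without weights. Gins2 differed in pattern, with 21.2, 56.7 and 19.1 CPM in organoids and 39.7, 41.3 and 33.6 CPM in 2D culture (-0.24 ± 0.45). Organoid 2 was above every 2D culture and the other organoids below, and Gins2 was called lower without organoid 2 (edgeR adjusted p = 0.0145), while its sign turned without organoid 3. Gins2 also had fractional counts in all 6 libraries.

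Of the 5 genes of deoxynucleotide supply, 4 fell, beside 12.6% of all genes called lower. Each organoid lay below each 2D culture for every one of the 5, as for 30.2% of all genes tested. Rrm2, the regulated subunit of ribonucleotide reductase, had 24.9, 5.35 and 64.2 CPM in organoids and 377, 334 and 361 CPM in 2D culture (-3.50 ± 0.81, edgeR adjusted p = 0.0214). The organoids ranged from 5.35 to 64.2 CPM, and the call was lost without organoid 1 (edgeR adjusted p = 0.0738) and without each 2D culture. Tk1 (gene ID 24834), thymidine kinase, had 33.6, 19.3 and 43.4 CPM in organoids and 230.4, 223 and 229.7 CPM in 2D culture (-2.83 ± 0.33, adjusted p = 0.00216, edgeR). Rrm1, the large reductase subunit, averaged 51.7 ± 14.8 CPM in organoids and 212 ± 16.4 CPM in 2D culture (-2.04 ± 0.27). The thymidylate synthase gene Tyms averaged 16.3 ± 5.86 CPM in organoids and 53.7 ± 1.90 CPM in 2D culture (-1.72 ± 0.31). Dut, which removes dUTP, had 16.1, 19.8 and 45.3 CPM in organoids and 50.3, 51.8 and 51.7 CPM in 2D culture, and did not pass (-0.92 ± 0.41, edgeR adjusted p = 0.14). It was called without organoid 3 (adjusted p = 0.00578), the organoid nearest to the 2D level. Rrm2 had fractional counts in 6 libraries and Tyms in 5.

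Of the 6 genes of recombination, crosslink and mismatch repair, 3 fell. Fanci and Fancd2, the paired proteins at the centre of the Fanconi anaemia crosslink pathway, fell by 1.88 and 1.43 on the log2 scale. Fanci had 13.6, 8.29 and 23.8 CPM in organoids and 56.9, 48.4 and 63.4 CPM in 2D culture. It lost its call without organoid 1 (edgeR adjusted p = 0.0529) and without each 2D culture. Fancd2 averaged 15.1 ± 3.21 CPM in organoids and 40.7 ± 3.19 CPM in 2D culture. Fanca, a subunit of the ligase complex that modifies them, was at 0.0589, 4.39 and 2.56 CPM in organoids and 10.8, 11.3 and 11.1 CPM in 2D culture (-2.24 ± 1.10, not passed). It was called lower without organoid 1 (edgeR adjusted p = 0.0312) and with limma-voom. For Fanca the low organoid was organoid 1, with 1 count, and not organoid 3. Fanci had fractional counts in 6 libraries and Fanca in 5. The mismatch recognition gene Msh6 averaged 13.1 ± 2.05 CPM in organoids and 23.8 ± 0.4 CPM in 2D culture (-0.86 ± 0.26) and passed narrowly (edgeR adjusted p = 0.0475). Msh6 was called under 6 of 13 alternatives, losing its call, among others, with DESeq2 size factors, without the filter on low counts, with limma-voom weighted per group and without each 2D culture. Brca1, which acts in recombination, averaged 9.66 ± 1.92 CPM in organoids and 17.5 ± 2.91 CPM in 2D culture (-0.85 ± 0.32, adjusted p = 0.0925, edgeR). Brca2, which also acts in recombination, overlapped between groups at 8.66, 17.8 and 11.5 CPM in organoids and 16.8, 15.3 and 13.7 CPM in 2D culture (-0.27 ± 0.36).

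Of the 3 regulators among the members 0 passed in the edgeR fit, and 0 had an unadjusted p under 0.05. E2f1, an activating E2F factor, had 3.83, 5.77 and 0 CPM in organoids and 7.05, 8.96 and 6.62 CPM in 2D culture (-1.24 ± 1.35, edgeR adjusted p = 0.533). E2f2, a second activator, had 1.53, 0.0601 and 0 CPM in organoids and 3.13, 2.29 and 2.75 CPM in 2D culture (-2.36 ± 1.53). It was called lower with limma-voom and without organoid 1. Chek1, the kinase that slows forks under stress, had 8.37, 17.3 and 27.0 CPM in organoids and 23.5, 21.7 and 21.6 CPM in 2D culture (-0.34 ± 0.43, adjusted p = 0.591, edgeR). Organoid 3 lay above every 2D culture for Chek1, and its sign turned without organoid 1.

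**Figure D2:**
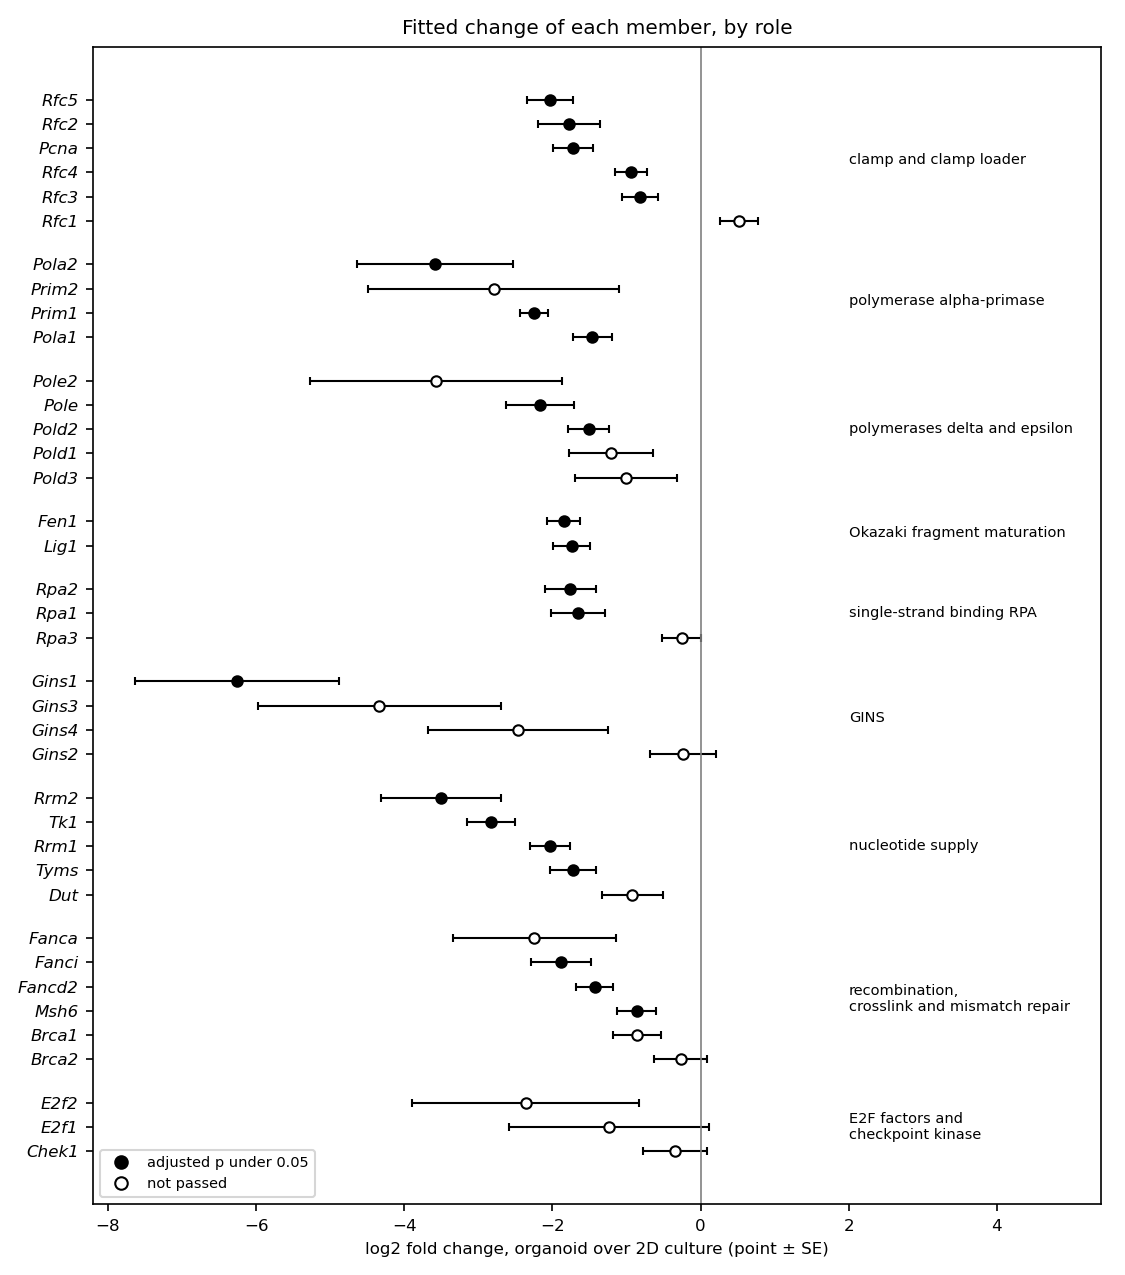
Log2 fold change of each member, organoid over 2D culture, with its SE as a horizontal bar, grouped by role, with filled points for an adjusted p under 0.05 and open points for genes that did not pass. Rfc1 at 0.52 is the one point right of 0, and the longest bars belong to Pole2, Prim2, Gins3 and E2f2, genes at or near 0 counts in 2 organoids.

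Several members were close to absent in some organoids and counted in others. The counts there could be low too, with 11 for Gins1, 21 for Gins3 and 29 for Pole2 in organoid 1. Of the 37 members with at least 100 counts in every 2D culture, 8, or 21.6%, had at most 5 counts in at least 1 organoid, against 6.68% of the 10219 tested genes of that kind. They were E2f1, Fanca, Gins1, Gins3, Gins4, Pola2, Pole2 and Prim2. Organoid 3 had 7 of these near-empty values, organoid 2 had 4 and organoid 1 had 1. Over all such genes the numbers were 509, 352 and 99, in the same order of organoids. Genes with at least 10 counts numbered 12627, 12060 and 11505 in organoid 1, 2 and 3 and 13019 to 13139 in 2D culture. Pola2 illustrates the pattern, with 39, 88 and 2 counts in organoid 1, 2 and 3. The filter on low counts kept 9 members although at least 1 organoid lay under its cutoff of 0.388 CPM of library totals, since all 38 cleared it in every 2D culture. The part of RNA amount or library complexity in this pattern was not tested.

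**Figure D3:**
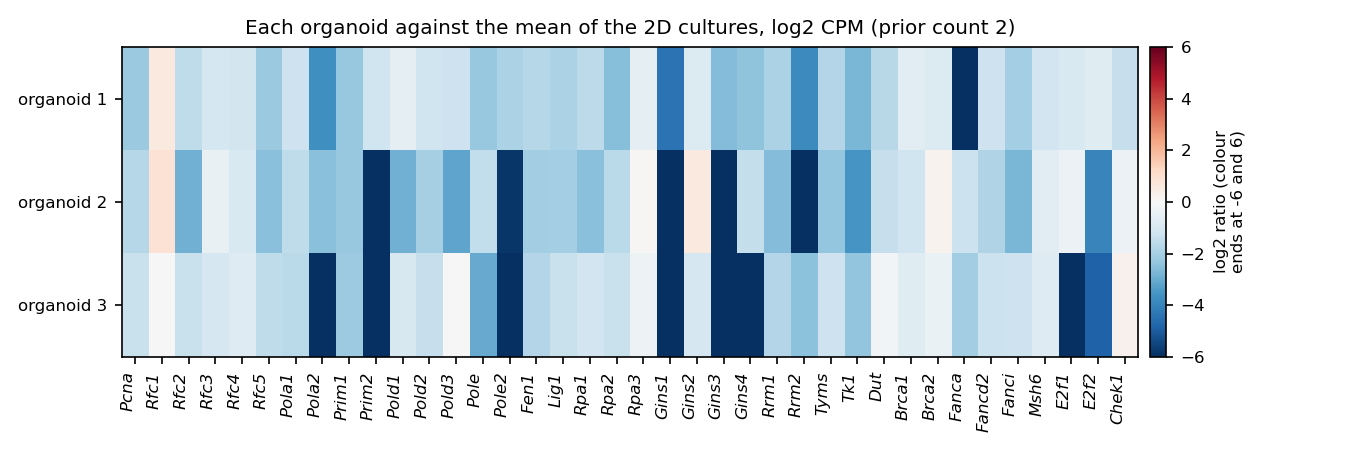
Log2 ratio of each organoid to the mean of the 2D cultures for the 38 members, from log2 CPM with a prior count of 2, with blue for lower and red for higher in the organoid and the colour scale ending at -6 and 6. Pale to mid blue fills most cells, and the darkest cells fall mainly in organoids 2 and 3.

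The median log2 ratio of the members to the 2D mean was -1.62, -2.02 and -1.35 in organoid 1, 2 and 3, and the same median over all genes tested was -0.08, -0.12 and -0.18. Organoid 2 was the lowest organoid for 18 members, organoid 1 for 11 and organoid 3 for 9. Organoid 3 thus had the highest summed level of the members and also the most members near 0 counts.

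Promoter sequence gave a further description of the members. RefSeq promoter windows of assembly GRCr8 were matched by gene ID for 33 members, and Rpa3, Gins4, Rrm2, E2f1 and E2f2 were not matched. Only the first listed window of each gene ID was used, and any further annotated starts were not searched. The 250 bases before its start were searched on both strands for 4 forms of the E2F site, TTTCCCGC, TTTGGCGC, TTTGCCGC and TTTCGCGC. A match was present in 5 of the 33 windows (15.2%), in 1.81% of 27457 promoter windows and in 3.35% of the 10615 windows of tested genes. Of the 21 matched members called lower 3 held one (14.3%), and of the 12 that did not pass 2 did (16.7%). The G2/M element TTTGAA was in 3 of 33 (9.09%), beside 10.4% of windows of tested genes. The windows of Gins1 and Tyms, the called members with a match and the largest changes, are shown in full, and 30-base stretches for the other 3 members with a match, all 5′ to 3′ on the gene's strand with the matched letters in capitals.
Gins1, chr3:160184670-160184919, plus strand: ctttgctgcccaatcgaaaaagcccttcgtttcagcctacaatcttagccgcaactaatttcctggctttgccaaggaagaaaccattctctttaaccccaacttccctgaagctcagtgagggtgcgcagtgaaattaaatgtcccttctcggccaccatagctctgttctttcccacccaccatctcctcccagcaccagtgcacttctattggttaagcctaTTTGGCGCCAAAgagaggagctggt
Tyms, chr9:120776084-120776333, minus strand: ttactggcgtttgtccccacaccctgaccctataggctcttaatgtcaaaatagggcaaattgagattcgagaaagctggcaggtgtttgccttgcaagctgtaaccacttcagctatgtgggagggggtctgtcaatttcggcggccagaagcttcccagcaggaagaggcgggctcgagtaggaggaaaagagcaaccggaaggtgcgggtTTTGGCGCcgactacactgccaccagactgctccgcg
Pola1, chrX:62342509-62342538, minus strand: gtcatcacaggGCGCCAAAtgcagtcccgc
Gins3, chr19:9434697-9434726, minus strand: gtgagtgaggcGCGGGAAAacgagtttgaa
Chek1, chr8:44629853-44629882, minus strand: agcaggttttgGCGGGAAAagctgtgcact
The Gins1 letters are overlapping matches on the plus and minus strands that form a palindrome, which begins 25 bases before the start. The Tyms match begins 37 bases before the start, and those of Gins3 and Chek1 36 and 28 bases before it. The Pola1 match begins 172 bases before the start. These are letter matches only. The gene with the largest fall and 2 genes that did not pass, Gins3 and Chek1, each hold one.

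The rest of the pathway was followed in lists of genes that are not members. In the origin licensing and helicase list 9 of 19 fell (47.4%), 0 rose and 10 did not pass, with a median log2 fold change of -2.02. Over all genes tested 12.6% were called lower and 14.9% higher. Orc1, the largest subunit of the origin recognition complex, was at 1.0, 0.361 and 0.568 CPM in organoids and 17.9, 16.7 and 19.2 CPM in 2D culture (-4.79 ± 0.52, edgeR adjusted p = 0.00159). All 3 organoids were near 1 CPM or below. The helicase subunit Mcm3 fell by 4.29, a call that was lost when any 2D culture was left out. Among 19 other replisome and chromatin assembly genes 8 fell (42.1%) and 1 rose (5.26%), with a median of -1.83. Chaf1b, a subunit of the chromatin assembly factor that follows the clamp, averaged 2.07 ± 1.70 CPM in organoids and 26.3 ± 2.15 CPM in 2D culture (-3.66 ± 0.83), and Asf1b, a histone chaperone, fell by 2.92. Pold4, the smallest subunit of polymerase delta, was the gene that rose, with 28.2, 34.8 and 30.4 CPM in organoids and 16.2, 16.6 and 15.1 CPM in 2D culture (0.96 ± 0.23, edgeR adjusted p = 0.0224). It lost its call with total library size and without each 2D culture, among others (adjusted p up to 0.389 over the alternatives), and without each 2D culture Chaf1b and Asf1b lost theirs too.

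Of 10 other nucleotide supply genes 5 fell (50%, beside 12.6% of all genes tested) and 0 rose (median -1.06). Shmt1, which feeds one-carbon units to thymidylate synthesis, was at 2.83, 2.82 and 0.52 CPM in organoids and 47.8, 44.6 and 44.6 CPM in 2D culture (-4.48 ± 0.63, edgeR adjusted p = 0.00419). Ctps1, the CTP synthase gene, fell by 1.43 and lost its call without organoid 1 and without each 2D culture. Rrm2b, the reductase subunit that p53 induces, stood apart from Rrm2, at 14.9 ± 1.71 CPM in organoids and 10.6 ± 1.48 CPM in 2D culture (0.49 ± 0.31, not passed). Rrm2b was chosen after its values were seen, and its sign turned under 1 of the 13 alternatives. The difference between these fold changes was not tested.

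Of 22 tested genes of the other recombination and Fanconi list 3 fell and 1 rose (median -0.80). The share lower, 13.6%, was near the background of 12.6%, and the share higher was 4.55% beside 14.9%. Exo1, a nuclease of end resection and mismatch repair, fell by 5.11 on the log2 scale, with 22, 1 and 1 counts in organoids. Fance, a Fanconi core subunit, rose by 1.43 ± 0.39, at 12.0 ± 2.68 CPM in organoids and 4.45 ± 0.539 CPM in 2D culture. Exo1 and Fance lost their calls without each 2D culture, and Fance also with total library size and without the filter on low counts. Of 11 mismatch and base excision genes 3 fell (27.3%) and 1 rose (9.09%), with a median of -0.29. The glycosylase gene Neil3 had 3 counts over all organoids and 233 over all 2D cultures, a level 43.5-fold higher in 2D culture, with an exact 95% interval of 14.7 to 213 that covers counting error alone. Its call was lost when any 2D culture was left out. The abasic site nuclease Apex1 fell by 1.99, and the scaffold gene Xrcc1 rose, with 160.0, 99.0 and 123.6 CPM in organoids and 41.7, 36.0 and 45.0 CPM in 2D culture (1.64 ± 0.24, edgeR adjusted p = 0.00495).

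Of 19 genes of repair that is not tied to replication (nucleotide excision, end joining and direct reversal) 1 fell and 2 rose, with a median log2 fold change of 0.18, and 5.26% were called lower beside the background of 12.6%. With total library size 4 were called lower, and the difference from the members was not tested. The excision repair genes Ercc6 and Ercc4 rose by 1.60 ± 0.36 and 1.13 ± 0.26, and both lost their calls with total library size and without each 2D culture. Both had fractional counts, Ercc4 in 6 libraries and Ercc6 in 3. Mgmt, which reverses alkylation damage, fell by 2.15, at 7.80 ± 2.41 CPM in organoids and 34.7 ± 4.15 CPM in 2D culture (edgeR adjusted p = 0.00546).

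**Figure D4:**
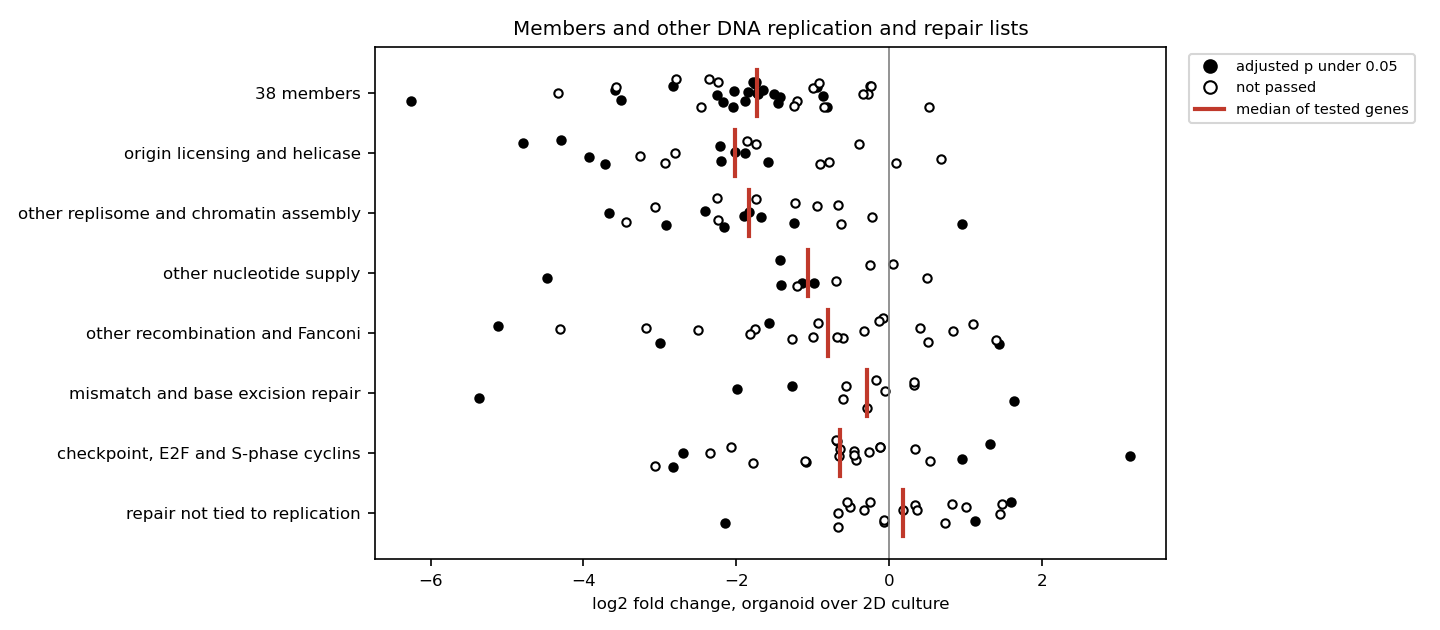
Log2 fold change, organoid over 2D culture, of each tested gene in the 38 members and in 7 other lists, with filled points for an adjusted p under 0.05 and a red bar at the median of each list. The medians run from -2.02 for origin licensing and -1.73 for the members to 0.18 for repair not tied to replication.

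Of 23 genes of the checkpoint, E2F and S-phase cyclin list 3 fell and 3 rose (median -0.64). These shares, 13% in each direction, were near the background of 12.6% lower and 14.9% higher. The gene with the largest change was Rb1 (gene ID 24708), the retinoblastoma protein that holds E2F factors inactive. Rb1 was at 48.2, 62.8 and 58.7 CPM in organoids and 6.41, 6.42 and 6.16 CPM in 2D culture (3.16 ± 0.23, edgeR adjusted p = 0.000465), and it was called under all 13 alternatives. E2f7, a repressive E2F factor, was at 4.54, 2.10 and 1.51 CPM in organoids and 16.7, 17.7 and 23.2 CPM in 2D culture (-2.82 ± 0.52), and lost its call without 2D culture 3 and with limma-voom weighted per group. The genes that follow in this paragraph were chosen after their values were seen. Ccne1, the cyclin of S-phase entry, averaged 9.55 ± 6.82 CPM in organoids and 61.9 ± 2.82 CPM in 2D culture (-2.69 ± 0.54), and Tfdp1, the partner of E2F factors, fell by 1.09. Cdc25a, a phosphatase that activates S-phase kinases, rose, with 34.1, 44.0 and 37.5 CPM in organoids and 15.5, 17.4 and 13.2 CPM in 2D culture (1.33 ± 0.24, adjusted p = 0.0092, edgeR). The pocket protein gene Rbl2 rose by 0.96 ± 0.28 and passed narrowly (edgeR adjusted p = 0.045), with fractional counts in 6 libraries and a call under 4 of 13 alternatives. Ccne1, Tfdp1 and Cdc25a lost their calls without each 2D culture, and Cdc25a also with total library size. Rbl1, a relative of Rbl2, stood at 1.74 ± 1.58 CPM in organoids and 14.5 ± 1.99 CPM in 2D culture and did not pass (adjusted p = 0.0802, edgeR). Ccna2, the S and G2 phase cyclin, showed the organoid spread at its widest, with 13.7, 0.18 and 61.7 CPM in organoids and 132, 124 and 129.8 CPM in 2D culture (not passed).

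**Figure D5:**
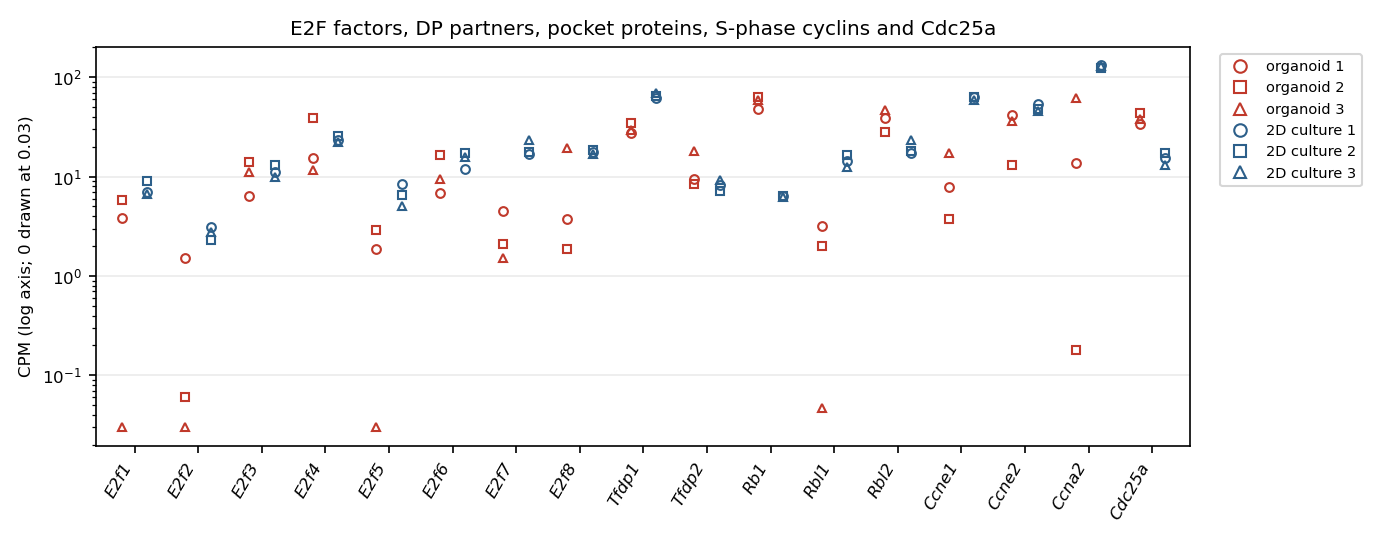
Level of E2F factors, their DP partners, pocket proteins, S-phase cyclins and Cdc25a in every library, in CPM on a log axis, with organoids in red to the left, 2D cultures in blue to the right and 0 drawn at 0.03. Rb1 lies between 48.2 and 62.8 CPM in the 3 organoids, above its 6.16 to 6.42 CPM in 2D culture, and E2f7, Tfdp1 and Ccne1 lie lower in every organoid.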

How the data were processed

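The authors deposited 1 table per library with estimated counts per gene, paired with gene symbols and IDs. Tools named in the submitters' processing notes are RSEM, HISAT, HISAT2, Bowtie2 and DESeq2, with no role for any. The sources used here do not give genome build, annotation or use of strand, and antisense overlaps cannot be told apart. Fractional counts, 1846 to 2501 genes per library, mark reads shared between genes and were rounded to whole numbers.

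Genes were filtered with filterByExpr (minimum count 10), scaled by TMM and tested with edgeR 4.0.16 in R 4.3.3 (robust quasi-likelihood F-test, Benjamini-Hochberg adjustment over 13052 genes, threshold 0.05). The SE was taken from the fold change divided by the root of its F statistic. Alternatives used limma 3.58.1 and DESeq2 1.42.0, other scalings, no filter, a replicate block and each library left out. A floor of 3 counts and the intervals cover counting error only, since no molecular identifiers are described. Replicate libraries of each group differed by more than sampling noise, so all were kept.

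The members and lists were chosen with earlier results of these data known. In each role the 2 members with the largest and the 1 with the smallest absolute fold change are given in every library. In each other list the 2 called genes with the largest changes and the largest called change in the opposite direction are named; genes beyond this were chosen after their values were seen. A gene that this rule chose is not reported here; list counts still hold it.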

Additional observations from a re-analysis of the deposited data

How the results depend on the processing

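Of 494 results for single members over the 13 alternatives, 410 kept their direction and side of the threshold, 57 kept the direction and lost the call, 24 gained a call and 3 changed sign. The changed signs were Rfc1 with total library size (-0.10), Gins2 without organoid 3 (range -0.88 to 0.0153 without 1 library) and Chek1 without organoid 1 (range -0.81 to 0.0185), none of them called with that sign. Members called lower numbered 21 with DESeq2 size factors, 26 with total library size, 21 without the filter, 23 with DESeq2, 28 with limma-voom and 23 with limma-voom weighted per group. Leaving out each library gave 7 to 23 members lower, 0 to 1 higher and 1109 to 5321 genes called in all, the low numbers being 1114, 1211 and 1109 genes without 2D culture 1, 2 and 3; the cause was not tested. The members' median ranged from -1.91 to -1.55 under those fits and was -2.33 with total library size, where the median of all genes was -0.65. That scaling moves the median of all genes by -0.61, and the members' median less that of all genes was -1.68 there and -1.70 with TMM. A change of scaling shifts all genes of a library alike, so this difference could hardly move and does not test the scaling. Numbers of genes called lower in the other lists moved as follows, with genes called higher not counted. Origin licensing had 14 with limma-voom and 4 to 12 without 1 library. Other replisome and chromatin assembly had 1 to 14 without 1 library. Other nucleotide supply had 3 with limma-voom weighted per group, 3 with the replicate block and 1 to 6 without 1 library. Other recombination and Fanconi had 6 with total library size, 5 with DESeq2, 7 with limma-voom, 5 with weights per group and 1 to 6 without 1 library. Mismatch and base excision had 5 with total library size and 1 to 4 without 1 library. Checkpoint, E2F and cyclins had 9 with total library size, 5 with DESeq2, 5 with limma-voom and 0 to 8 without 1 library. Repair not tied to replication had 4 with total library size and 1 to 3 without 1 library. Same-numbered libraries correlated at 0.0606, 0.186 and 0.0186 in their deviations from the group means, so the numbers were not taken to pair the samples; the replicate block called 19 members lower (background 9.88%) and 2730 genes, without calls for Msh6, Rfc3, Rfc4, Pold4, Fance, Neil3, Rbl2 and Ercc4 among the genes named, and 1 of 3 organoids correlated best with its own number. With 3 libraries a group, and SDs larger among organoids over the members as over all genes tested, changes of members near 0 counts in some organoids could not be sized closely.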
